A study of Mus musculus with 16 samples.

Results

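The Hox genes are the homeobox genes of the Hoxa, Hoxb, Hoxc and Hoxd clusters, and their transcripts were followed here in the whole mouse uterus. A gene was included when the RefSeq accession of a non-control array probe mapped to a symbol made of Hox, a cluster letter and a number. Of 39 annotated Hox genes, 36 had a matched probe and 31 were tested, among 24651 genes and unnamed targets tested in all. Hoxc4, Hoxc6 and Hoxc11 had no matched probe. The level of a gene is the log2 signal of its brightest probe minus the 75th percentile of that array, so a level of 0 is a signal equal to that percentile.

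RNA of whole uterus was hybridised to 16 one-colour arrays, 4 for each of 4 groups. GenD samples came from mice given 50 mg/kg genistein on postnatal days 1 to 5 and 1 mg/kg dexamethasone as adults. GenV samples had the same neonatal genistein and the adult saline vehicle (100 µl). SalD samples were neonatal controls given the adult dexamethasone dose, and SalV samples were neonatal controls given saline. The sample labels call the neonatal control saline, whereas the series design text describes 20 µl of corn oil. All 4 groups shared removal of the adrenals and ovaries at 6 weeks, treatment at 8 weeks and collection 4 h later. Strain and animal numbers are not given in the sources used here, so the p-values measure the spread between arrays. The title asks how early genistein changes glucocorticoid signalling in the adult uterus.

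Hox proteins are DNA-binding transcription factors that give cells along the body axis their positional identity. Genes at one end of each cluster are expressed anteriorly and those at the other end posteriorly, and in the female reproductive tract the posterior Hoxa genes mark successive segments from oviduct to vagina. Hoxa10 and Hoxa11 stay on in the adult uterine stroma, where both are needed for implantation and decidualization. Genistein is a soy isoflavone that binds estrogen receptors, and dexamethasone is a synthetic ligand of the glucocorticoid receptor.

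Across the arrays the 75th percentile of the spot signals ranged from 948 to 2719. By group it was 1321 to 1803 in GenD, 1439 to 1970 in GenV, 1987 to 2719 in SalD and 948 to 2029 in SalV. GenD and SalD thus did not overlap in array brightness. The scanner software marked 68.9 to 81.3% of spots as well above background. Markers of the labelled tissue were present: all 7 measured smooth muscle genes, all 5 stromal genes and all 8 epithelial genes were above background on all 16 arrays. The groups differed in markers of other cells. The summed signal of 9 adipocyte genes, in multiples of the 75th percentile, ran from 10.8 to 83.6 in GenD, 22.1 to 80.3 in GenV, 15.1 to 237 in SalD and 3.62 to 28.2 in SalV. Summed lymphocyte signal, over 9 genes, reached at most 2.48 in GenD and 2.00 in SalD, below every GenV array (3.01 to 3.54) and every SalV array. In whole uterus, fewer cells of a type and less RNA per cell cannot be told apart. GenV replicates 3 and 4 differed from GenV replicates 1 and 2 in many Hox genes. The GenD minus GenV changes of Hoxa10 and Hoxa11 are given with and without them.

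**Figure D1:**
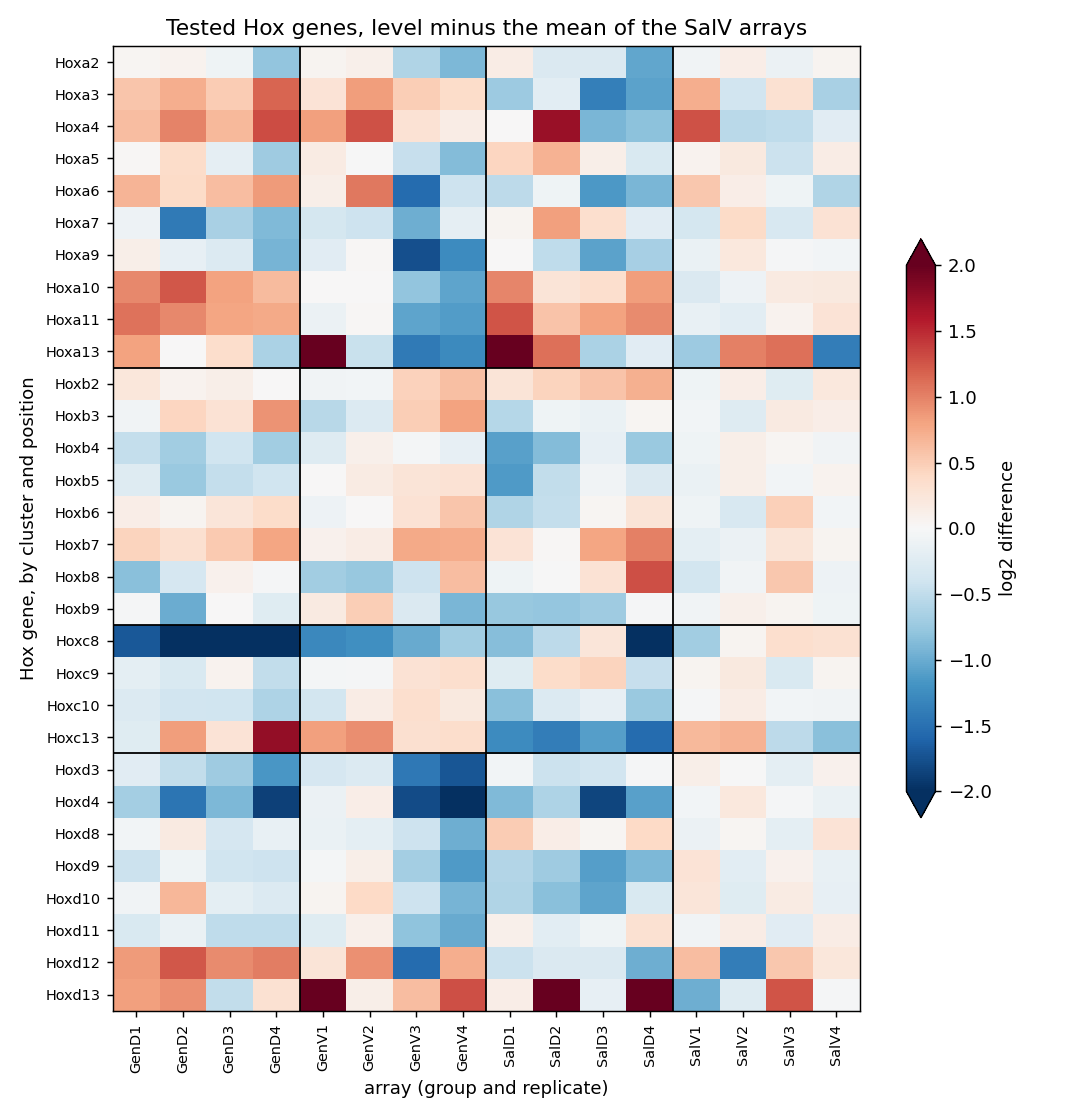
Level of the Hox genes shown (rows, grouped by cluster, paralog group 1 end at the top of each cluster) on each of the 16 arrays (columns) minus the mean of the 4 SalV arrays, in log2 units; colours are clipped at 2 in either direction. Hoxa10 and Hoxa11 are above the SalV mean on all 8 dexamethasone arrays, and GenV replicates 3 and 4 are the lowest GenV arrays for 6 of 8 Hoxd genes.

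Transcripts of all 4 clusters were found. All 11 Hoxa genes were tested, with 8 of 10 Hoxb genes, 8 of 9 Hoxd genes and 4 of 9 annotated Hoxc genes, 6 of which had a probe. By position, 6 of 8 anterior genes (paralog groups 1 to 3), 12 of 15 central genes (groups 4 to 8) and 13 of 16 posterior genes (groups 9 to 13) were tested. The signal was above background on all 16 arrays for 26 of the 31, namely 9 Hoxa, 8 Hoxb, 2 Hoxc and 7 Hoxd genes. The exceptions were Hoxa4 (15 arrays), Hoxa13 (6 arrays), and Hoxc8, Hoxc13 and Hoxd13 (4 arrays each). In the 5 comparisons 10 members were called at least once. Over all genes, 23% were called between SalD and SalV, 22.9% between GenD and SalD and 5.29% between GenD and GenV. The share of all genes called at least once was not counted. The other 21 members were called in none, and 17 of these were above background on all 16 arrays. The log2 differences of the 17 ran from -0.65 (Hoxb5) to 0.49 (Hoxa9) between GenD and GenV and from -1.10 (Hoxd4) to 0.53 (Hoxb7) between SalD and SalV. They ran from -0.65 (Hoxb8) to 0.73 (Hoxd10) between GenD and SalD, and from -0.98 (Hoxd4) to 0.43 (Hoxb7) between GenV and SalV.

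Dexamethasone after neonatal genistein was compared between GenD and GenV. Hoxa10 and Hoxa11, neighbours in the Hoxa cluster, rose 2.57-fold and 2.75-fold, and the other 29 tested Hox genes did not pass the test. Of 31 Hox genes 2 (6.45%) were called by limma at an adjusted p below 0.05, against 5.29% of all genes tested (2.49% higher and 2.8% lower). At an unadjusted p below 0.05 there were 6, against 18% of all genes. The median log2 change was 0.10 over the tested Hox genes and -0.015 over all genes. The share of Hox genes called was near that of all genes.

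Hoxa10 had a level of 4.11, 4.38, 3.94 and 3.77 on the GenD arrays, against 3.16, 3.15, 2.35 and 2.09 on the GenV arrays. All 4 GenD arrays were above all 4 GenV arrays, as for 6.03% of all genes. The log2 change was 1.36 (SE 0.26, adjusted p = 0.00644). Hoxa10 encodes a posterior Hox factor of the uterine stroma and epithelium.

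Hoxa11 had a level of 5.37, 5.25, 5.08 and 5.05 in GenD, against 4.17, 4.32, 3.23 and 3.18 in GenV. The groups did not overlap, and GenV replicates 3 and 4 were again the lowest. The log2 change was 1.46 (SE 0.25, adjusted p = 0.00340). Hoxa11 encodes the posterior factor of the neighbouring paralog group, with a role in stromal and glandular development of the uterus.

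Both changes are smaller without GenV replicates 3 and 4, at 0.90 for Hoxa10 (adjusted p = 0.0477) and 0.94 for Hoxa11 (adjusted p = 0.0187). Each was called under all 27 alternatives. Within the 3 slides that held arrays of both groups, the Hoxa10 difference was 0.87, 2.29 and 0.63 and the Hoxa11 difference was 1.05, 2.07 and 0.73. The first of these slides set 2 GenD arrays against 1 GenV array, and the others 1 against 1. Summed stromal signal over 5 genes ran from 32.9 to 41.1 in GenD, below the 42.9 to 66.6 of GenV. Of those 5 genes Lum, a matrix proteoglycan gene, fell by 0.97 (adjusted p = 0.00724) and Hand2 rose by 1.01 (adjusted p = 0.0285), and the median over the list was -0.11. Summed adipocyte signal did not separate the groups, at 10.8 to 83.6 in GenD and 22.1 to 80.3 in GenV.

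In neonatal controls Hoxa11 rose after dexamethasone and Hoxa10 did not pass the test. Hoxa11 had a level of 5.55, 4.87, 5.10 and 5.24 in SalD, against 4.14, 4.09, 4.37 and 4.57 in SalV. It rose by 0.90 (SE 0.25, adjusted p = 0.0207) with no overlap between the groups, a 1.86-fold rise. The call was lost without SalV replicate 1 (adjusted p = 0.0614), SalV replicate 2 (0.0523), SalD replicate 1 (0.0609) or SalD replicate 4 (0.0511).

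Hoxa10 had a level of 4.12, 3.40, 3.48 and 3.98 in SalD, against 2.86, 3.05, 3.33 and 3.34 in SalV. The groups did not overlap, but the log2 difference of 0.60 (SE 0.26, adjusted p = 0.103) did not pass the test. It passed without GenV replicates 3 and 4, which lowers the shared spread (adjusted p = 0.0398), and with median scaling (0.83, adjusted p = 0.0258). SalD replicate 1, with the least adipocyte signal of the SalD group at 15.1, held the highest level of both genes among the SalD arrays.

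The effect of dexamethasone on this pair was not shown to differ between the genistein and control arms. The difference of the log2 effects was 0.76 for Hoxa10 (SE 0.36, 95% interval -0.012 to 1.54, adjusted p = 0.328) and 0.56 for Hoxa11 (SE 0.35, interval -0.19 to 1.32, adjusted p = 0.441). Over 27 alternatives that difference ran from 0.30 to 0.92 for Hoxa10 and from 0.043 to 0.76 for Hoxa11. With dexamethasone on board, the GenD and SalD arrays overlapped for both genes: the GenD minus SalD difference was 0.31 for Hoxa10 (interval -0.24 to 0.85) and -0.0026 for Hoxa11 (interval -0.54 to 0.53).

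The promoter windows of this pair are shown because the 2 genes rose together, and those of Hoxb4 and Hoxd9 because both fell in the control arm. Each runs from 250 bases before to 50 bases after a RefSeq transcription start (build GRCm38.p6), 5′ to 3′ on the gene's own strand, and Hoxa10 has a window for each of 2 starts. Capitals mark matches on either strand to AGAACA, the half-site of glucocorticoid receptor, or to GGTCA, the half-site of estrogen receptor.
Hoxa10, chr6:52234890-52235189, minus strand: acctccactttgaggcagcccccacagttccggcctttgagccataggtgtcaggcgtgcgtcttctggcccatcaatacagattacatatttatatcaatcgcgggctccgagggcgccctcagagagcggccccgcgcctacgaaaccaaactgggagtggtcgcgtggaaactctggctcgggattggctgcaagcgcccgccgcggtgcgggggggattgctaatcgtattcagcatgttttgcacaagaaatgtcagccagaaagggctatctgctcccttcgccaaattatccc
Hoxa10, chr6:52240805-52241104, minus strand: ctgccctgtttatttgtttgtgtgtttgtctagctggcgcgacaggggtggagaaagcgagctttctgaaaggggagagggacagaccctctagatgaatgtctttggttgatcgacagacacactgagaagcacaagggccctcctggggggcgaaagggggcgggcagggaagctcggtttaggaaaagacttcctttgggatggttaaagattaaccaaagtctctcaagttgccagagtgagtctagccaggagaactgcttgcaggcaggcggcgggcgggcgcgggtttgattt
Hoxa11, chr6:52245761-52246060, minus strand: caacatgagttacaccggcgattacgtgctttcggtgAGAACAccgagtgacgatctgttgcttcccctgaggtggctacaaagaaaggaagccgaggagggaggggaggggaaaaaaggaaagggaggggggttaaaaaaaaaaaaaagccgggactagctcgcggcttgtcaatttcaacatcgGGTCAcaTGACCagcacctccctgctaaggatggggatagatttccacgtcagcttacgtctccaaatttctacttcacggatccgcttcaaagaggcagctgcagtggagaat
Hoxb4, chr11:96318017-96318316, plus strand: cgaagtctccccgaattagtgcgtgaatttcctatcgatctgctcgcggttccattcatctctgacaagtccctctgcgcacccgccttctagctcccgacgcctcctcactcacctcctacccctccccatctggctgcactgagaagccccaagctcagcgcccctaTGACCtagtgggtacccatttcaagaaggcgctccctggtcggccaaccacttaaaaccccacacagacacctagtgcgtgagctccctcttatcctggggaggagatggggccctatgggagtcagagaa
Hoxd9, chr2:74697513-74697812, plus strand: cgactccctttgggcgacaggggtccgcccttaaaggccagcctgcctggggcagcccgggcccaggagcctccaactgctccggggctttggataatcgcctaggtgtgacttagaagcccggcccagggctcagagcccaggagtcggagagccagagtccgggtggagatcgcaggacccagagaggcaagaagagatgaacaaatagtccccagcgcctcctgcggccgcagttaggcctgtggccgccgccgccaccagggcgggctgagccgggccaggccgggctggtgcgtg

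Windows were available for 22 Hox genes (24 windows). The Hoxa11 window held 1 AGAACA match, 213 bases before the start, and 2 GGTCA matches on opposite strands, 64 and 57 bases before it. Neither Hoxa10 window held a match to either motif, nor did the Hoxd9 window, and the Hoxb4 window held 1 GGTCA match. AGAACA occurred in 2 of 24 Hox windows, those of Hoxa9 and Hoxa11, against 19% of all 32851 windows of this length. GGTCA occurred in 12 of 24 Hox windows, against 40.5% of all windows. The full glucocorticoid response element, AGAACA and its reverse complement spaced by NNN, was in 0 Hox windows and in 3 of all windows, and TGATNNAT, the joint site of PBX and HOX proteins, was in 4 of 24 (Hoxa2, Hoxb1, Hoxb8 and 1 of 2 Hoxd11 windows), against 8.85%. These matches describe letters in the windows only.

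**Figure D2:**
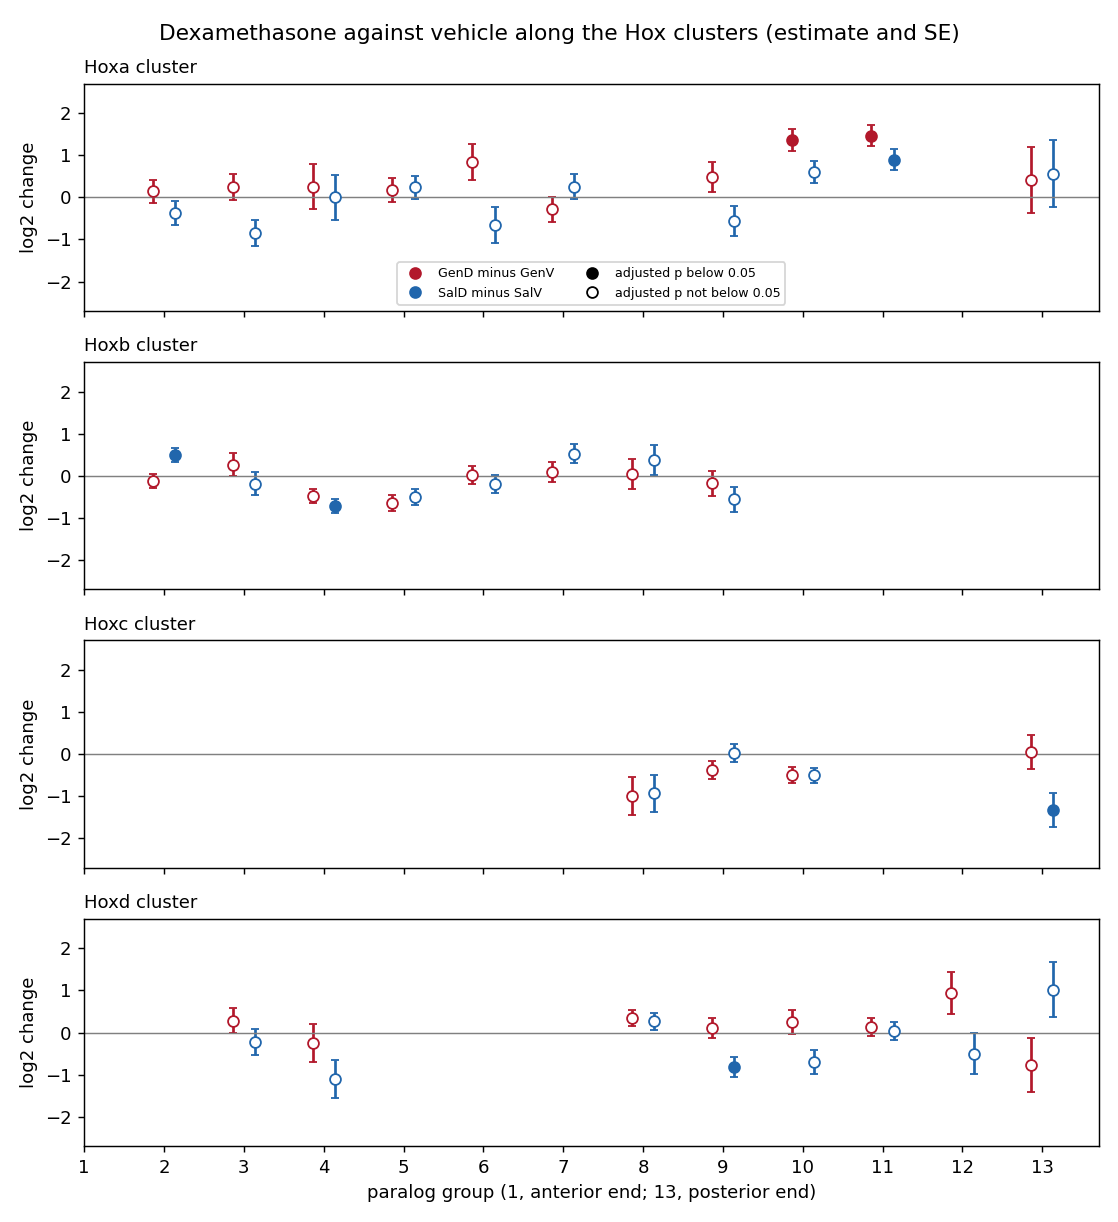
Log2 change after dexamethasone in genistein-treated mice (GenD minus GenV, red) and neonatal controls (SalD minus SalV, blue) for the Hox genes shown along each cluster, by paralog group; points are limma estimates with SE bars, filled where the adjusted p was below 0.05. Hoxa10 and Hoxa11 are the 2 filled red points, and the 5 filled blue points are Hoxa11, Hoxb2, Hoxb4, Hoxc13 and Hoxd9.

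Dexamethasone in neonatal controls was compared between SalD and SalV over the whole set. Hoxa11 and Hoxb2 rose, and Hoxb4, Hoxc13 and Hoxd9 fell, while 26 of 31 did not pass the test, and 12 had an unadjusted p below 0.05, against 37.5% of all genes. The 5 calls are 16.1% of the tested Hox genes, against 23% of all genes (8.45% higher and 14.6% lower). The median log2 change was -0.22 over the Hox genes and -0.16 over all genes. The median of all genes moved with the scaling, to -0.038 with quantile normalization, 0.068 with median scaling and -0.49 with normexp background correction. Of the called genes 36.7% were higher in SalD, a share of 47.3% after quantile normalization and 64.8% after median scaling. Between GenD and GenV the share was 47.1%, and 66.5% with normexp, where the median of all genes was 0.31.

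Hoxb2, an anterior gene with a role in the hindbrain, had a level of 1.77, 1.95, 2.09 and 2.23 in SalD, against 1.42, 1.64, 1.27 and 1.72 in SalV. No SalD array overlapped SalV. The rise of 0.50 (SE 0.17, adjusted p = 0.0491) lay at the threshold and was lost in 15 of 27 alternatives. It was 0.67, 0.13 and 0.37 within the 3 slides that held both groups, the first with 2 SalD arrays and 1 SalV array.

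Hoxb4, a central gene known for its part in blood stem cells, had a level of -3.83, -3.61, -2.92 and -3.48 in SalD, against -2.83, -2.62, -2.71 and -2.82 in SalV. All 4 SalD arrays were lower. It fell by 0.71 (SE 0.17, adjusted p = 0.0103), and the within-slide differences were -0.71, -1.21 and -0.10. With quantile normalization the change was -0.48 (adjusted p = 0.0640) and with median scaling -0.49 (adjusted p = 0.0738), and the call was lost in both. In genistein-treated mice Hoxb4 had -3.23, -3.43, -3.15 and -3.44 in GenD, against -3.01, -2.64, -2.78 and -2.92 in GenV, again without overlap, with a difference of -0.48 (adjusted p = 0.139). The difference between the arms was 0.24 (interval -0.28 to 0.76).

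Hoxd9, a posterior gene known for its part in limb patterning, had a level of -0.58, -0.71, -1.09 and -0.89 in SalD, against 0.28, -0.22, 0.09 and -0.14 in SalV. The groups did not overlap, and it fell by 0.82 (SE 0.24, adjusted p = 0.0247). A brighter Hoxd9 probe, left out of the gene table because 1 array was missing, gave -0.82 (adjusted p = 0.0286, over all probes). The call was lost in 7 of 27 alternatives, among them the slide block (-0.80, adjusted p = 0.0837), median scaling (-0.59, adjusted p = 0.0529) and leaving out SalV replicate 1 or 3 or SalD replicate 3 or 4. In genistein-treated mice the levels overlapped and the difference was 0.099 (SE 0.24).

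Hoxc13, the most posterior Hoxc gene and a regulator of hair and nail keratins, was dim throughout. It was above background on 1 GenD, 2 GenV, 0 SalD and 1 SalV arrays. Its level was -8.64, -8.76, -8.48 and -8.92 in SalD, against -6.72, -6.67, -7.90 and -8.20 in SalV. It was called lower in SalD (adjusted p = 0.0315). With 0 SalD arrays and only 1 SalV array above background, the size of the fall cannot be given. The call was lost in 9 of 26 alternatives.

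**Figure D3:**
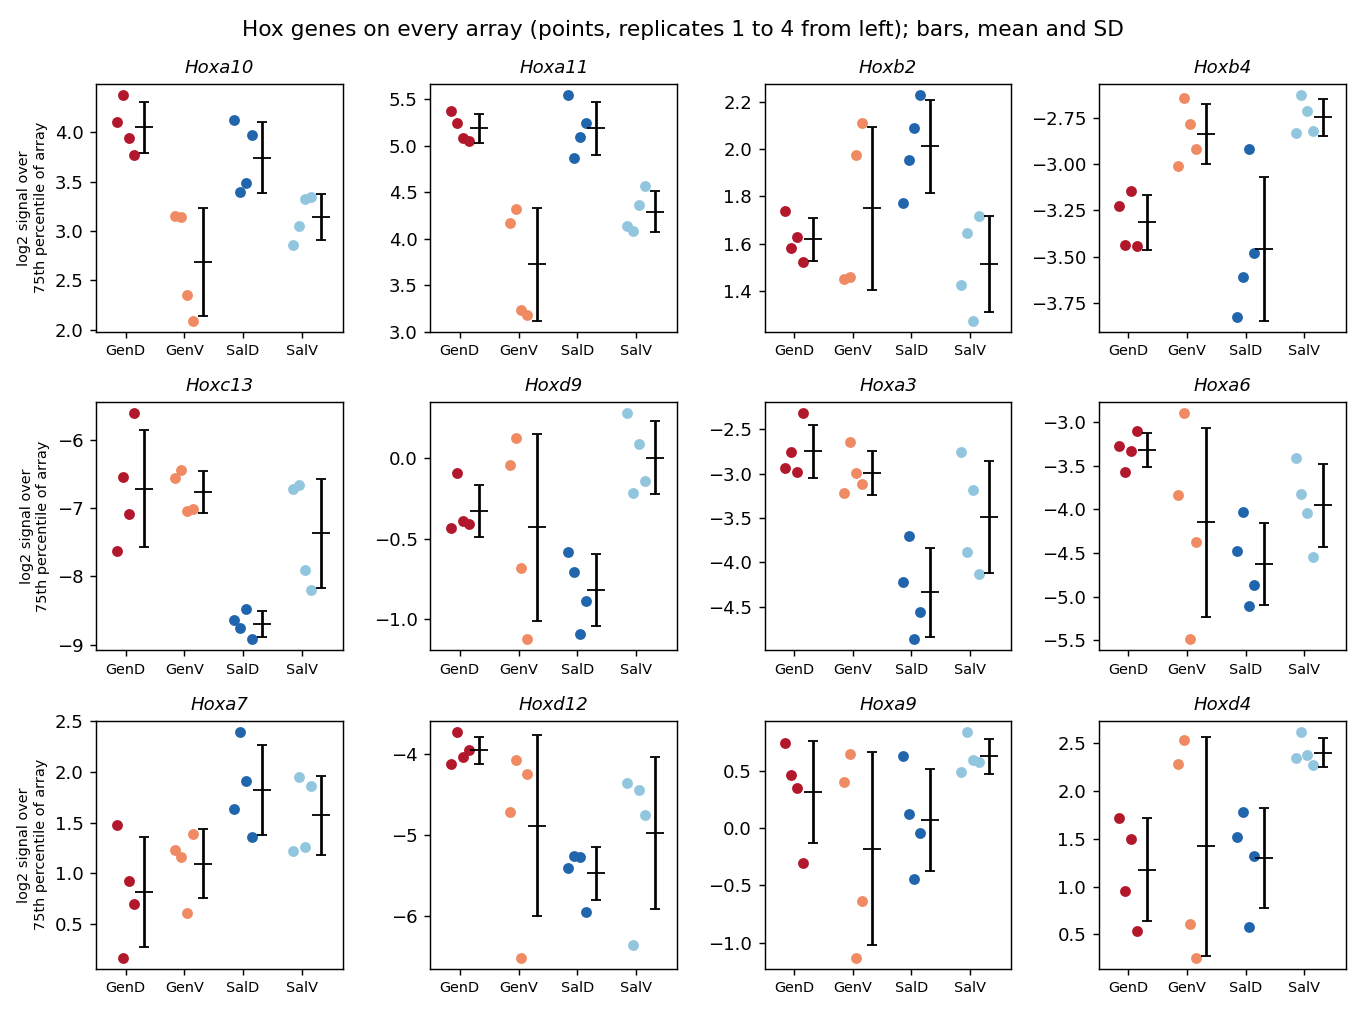
Level (log2 signal over the 75th percentile of the array) of 12 Hox genes on every array, as points for replicates 1 to 4 of GenD, GenV, SalD and SalV, with the group mean and SD beside them. Hoxa10 and Hoxa11 are high in both dexamethasone groups, the mean of Hoxa3 is lowest in SalD, and in GenV the points of Hoxa10, Hoxa11, Hoxa9, Hoxd4 and Hoxd9 split into 2 high and 2 low.

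Several members were lower with no overlap in a dexamethasone comparison and did not pass the test. Hoxd4, a central gene, had a level of 1.52, 1.78, 0.57 and 1.32 in SalD, against 2.35, 2.62, 2.38 and 2.27 in SalV (difference -1.10, SE 0.46, adjusted p = 0.0944). Hoxd10, which with Hoxd9 patterns the limb and spinal cord, had 0.35, 0.11, -0.11 and 0.64 in SalD, against 1.19, 0.71, 1.11 and 0.78 in SalV (difference -0.70, adjusted p = 0.0860). Both passed without GenV replicates 3 and 4, arrays of neither group, which lowered the shared spread and brought the calls to 9, with Hoxa10 and Hoxc10 added. The share of all genes called was then 26.9%, against 23% with every array. Hoxb5, the neighbour of Hoxb4, was lower by similar amounts in both arms, with a difference of -0.65 between GenD and GenV (adjusted p = 0.0680, no overlap) and -0.50 between SalD and SalV (adjusted p = 0.0741). Hoxc10 gave -0.50 in each arm (adjusted p = 0.145 and 0.0583). Groups did not overlap for 9 of 31 Hox genes in the control arm (3 higher and 6 lower) and for 5 in the genistein arm (2 higher and 3 lower), against 28.3% (10.9% higher, 17.5% lower) and 12.2% (6.03% higher, 6.2% lower) of all genes.

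Hoxa9, which lies beside Hoxa10 and marks the oviduct segment, did not rise with its neighbours. Its difference was 0.49 between GenD and GenV (SE 0.36, adjusted p = 0.535) and -0.56 between SalD and SalV (SE 0.36, adjusted p = 0.271). Hoxa13, on the other side and a vaginal marker, was above background on 6 arrays only and gave 0.41 (SE 0.79) and 0.57 (SE 0.79). By cluster, the median change between GenD and GenV was 0.26 for Hoxa, -0.057 for Hoxb, -0.43 for Hoxc and 0.19 for Hoxd. Between SalD and SalV it was 0.00049 for Hoxa, -0.19 for Hoxb, -0.72 for Hoxc and -0.36 for Hoxd. The Hoxc medians rest on 4 genes, of which Hoxc8 and Hoxc13 were above background on only 4 arrays each. Hoxc5, not tested because of a missing array, is not among them. By position, the median was 0.19 for anterior, 0.026 for central and 0.13 for posterior genes in the genistein arm. In the control arm it was -0.26, -0.096 and -0.50 in that order. Over all genes the medians were -0.015 and -0.16 in the genistein and control arms.

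Genistein under dexamethasone was compared between GenD and SalD. Hoxa3, Hoxa6, Hoxc13 and Hoxd12 were higher and Hoxa7 was lower in GenD. The 5 calls are 16.1% of the 31 tested, against 22.9% of all genes (16.5% higher and 6.39% lower), and the median log2 change was 0.085 against 0.12 for all genes. At an unadjusted p below 0.05 there were 8, against 38.6% of all genes. Of all called genes 72.1% were higher in GenD, a share of 56.2% after quantile normalization and 56.3% after median scaling, and normexp moved the median of all genes to 0.46. This comparison shares the SalD arrays with the control-arm comparison, and the GenD arrays with the genistein-arm one, so Hoxc13, low in SalD, appears in both lists.

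Hoxa3, an anterior gene of the pharyngeal region, had a level of -2.94, -2.76, -2.98 and -2.32 in GenD, against -4.22, -3.70, -4.86 and -4.56 in SalD. Every GenD array was above every SalD array. Groups did not overlap for 6 Hox genes higher in GenD and 1 lower, against 19.6% and 9.05% of all genes (28.6% in all). It rose by 1.58 (SE 0.30, adjusted p = 0.00533), a 3.00-fold difference called under all 27 alternatives. A second, dimmer probe of Hoxa3 gave only 0.10 (adjusted p = 0.780 over all probes), and the mean of both probes gave 0.84 (adjusted p = 0.0138). The same Hoxa3 probe had -2.76, -3.88, -3.18 and -4.13 in SalV and lay between -3.22 and -2.65 in GenV.

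Hoxa6, a central gene, had -3.27, -3.57, -3.34 and -3.10 in GenD, against -4.48, -4.03, -5.11 and -4.87 in SalD (rise of 1.30, SE 0.43, adjusted p = 0.0416). The groups were apart, and the call was lost in 10 of 27 alternatives, the slide block among them (1.12, adjusted p = 0.174). Hoxd12, a posterior gene of the limb, had -4.11, -3.72, -4.03 and -3.94 in GenD, against -5.41, -5.26, -5.27 and -5.95 in SalD. It rose by 1.52 (SE 0.50, adjusted p = 0.0414), and that call was lost in 16 of 27 alternatives. Hoxc13 had -7.62, -6.54, -7.09 and -5.62 in GenD, against its SalD levels near -8.70, and was called higher in GenD (adjusted p = 0.00703). Only 1 of the 4 GenD arrays measured Hoxc13 above background, and normexp background correction removed the call (adjusted p = 0.0767).

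Hoxa7, a central gene next to Hoxa6, went the other way. Its level was 1.47, 0.17, 0.93 and 0.70 in GenD, against 1.63, 2.40, 1.91 and 1.36 in SalD. GenD replicate 1 overlapped the SalD range. It fell by 1.01 (SE 0.30, adjusted p = 0.0277), and the call was lost in 6 of 27 alternatives, without SalD replicate 2 (-0.82, adjusted p = 0.0688) or 3, without GenD replicate 2 (-0.79), 3 or 4, and without SalD replicates 2 and 3 together (-0.68, adjusted p = 0.219).

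The 4 genes that were higher in GenD were dim, and dim genes as a whole moved that way. With all genes split by mean level into 5 equal bins, Hoxc13 lay in the dimmest bin, and Hoxa3, Hoxa6 and Hoxd12 lay in the next. All genes of those 2 bins had a median GenD minus SalD change of 0.64 and 0.23, against 0.089 in the brightest bin. Hoxa7, in the brightest bin, moved against that median. Between SalD and SalV the dimmest bin had a median of -0.53 and the brightest 0.021, and Hoxa10, Hoxa11 and Hoxb2 lay in the brightest bin. The 75th percentile of the spot signals was 1321 to 1803 on the GenD arrays and 1987 to 2719 on the SalD arrays. The parts of signal level and array brightness in these calls were not tested. Summed adipocyte signal reached 237 and 209 on SalD replicates 2 and 3. Without those arrays Hoxa3 and Hoxc13 were the Hox genes still called, along with 9.71% of all genes.

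**Figure D4:**
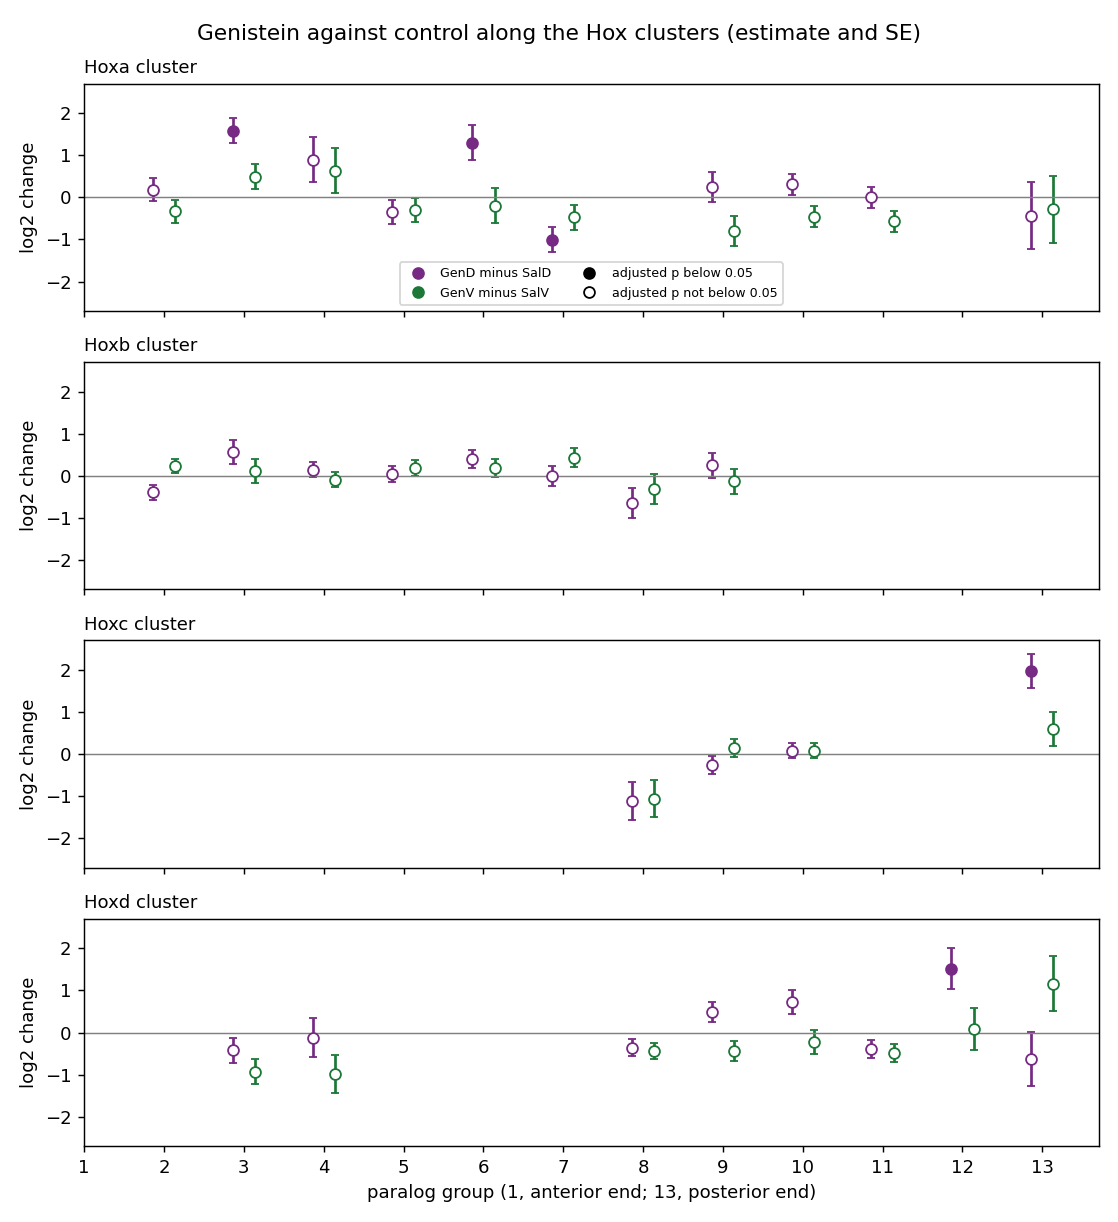
Log2 change with neonatal genistein under dexamethasone (GenD minus SalD, purple) and under vehicle (GenV minus SalV, green) for the Hox genes shown along each cluster, by paralog group; points are limma estimates with SE bars, filled where the adjusted p was below 0.05. The 5 filled purple points are Hoxa3, Hoxa6, Hoxa7, Hoxc13 and Hoxd12, and no green point is filled.

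Genistein under vehicle was compared between GenV and SalV, and no Hox gene was called by limma, where 1 of all 24651 genes was (0.00406%). At an unadjusted p below 0.05 there were 7 Hox genes, against 13.9% of all genes: Hoxa9, Hoxa11, Hoxc8, Hoxd3, Hoxd4, Hoxd8 and Hoxd11, all with lower levels in GenV. The median log2 change was -0.19 over the Hox genes and 0.051 over all genes. For Hoxa9 the levels were 0.40, 0.65, -1.13 and -0.64 in GenV, against 0.49, 0.84, 0.60 and 0.57 in SalV. For Hoxd4 they were 2.28, 2.53, 0.61 and 0.26 in GenV, against 2.35 to 2.62 on 3 SalV arrays and 2.27 on the other. In both genes GenV replicates 1 and 2 lay near the SalV levels and replicates 3 and 4 below them. Groups did not overlap for Hoxc8 and Hoxd3, both lower in GenV, against 4.77% of all genes (2.89% higher and 1.89% lower). Hoxc8 was above background on only 1 GenV and 2 SalV arrays. Its groups nearly touched, at -7.0728 on GenV replicate 4 and -7.0703 on SalV replicate 1.

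The spread within GenV differed by cluster. The median SD of the Hox genes was 0.30 in GenD, 0.51 in GenV, 0.41 in SalD and 0.22 in SalV, and over all genes it was 0.32, 0.34, 0.29 and 0.28 in that order. In the Hoxd cluster it was 0.66 in GenV, against 0.31, 0.27 and 0.22 in GenD, SalD and SalV. GenV replicates 3 and 4 were the 2 lowest GenV arrays for 8 of 11 Hoxa genes and 6 of 8 Hoxd genes, and the 2 highest for 6 of 8 Hoxb genes and 3 of 4 Hoxc genes. Over all genes they were the 2 lowest for 39.2% and the 2 highest for 24.5%. Those arrays also carried summed epithelial signal of 284 and 252, against 140 and 143 on GenV replicates 1 and 2, and summed stromal signal of 48.2 and 42.9, against 64.5 and 66.6. The part of tissue make-up in this pattern was not tested.

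The difference between the dexamethasone effects of the genistein and control arms was called for no Hox gene, and for no gene of 24651. At an unadjusted p below 0.05 it covered 6 Hox genes, against 15.5% of all genes, and 3830 genes in all. Hoxa3 (1.09), Hoxd9 (0.92), Hoxd10 (0.95), Hoxa6 and Hoxc13, which no SalD array measured above background, had more positive effects in genistein-treated mice, and Hoxb2 (-0.63) a more negative one. Their intervals excluded 0 but are not adjusted, with 0.20 to 1.63 for Hoxd9 and -1.14 to -0.11 for Hoxb2. The sizes also depended on the arrays used. The difference shrank to 0.45 for Hoxd9, 0.71 for Hoxa6 and -0.33 for Hoxb2 when the GenV replicates set apart above were left out. For Hoxa3 and Hoxc13 the smallest values were 0.69 and 0.80, under other alternatives. The median difference over the Hox genes was 0.26, against 0.13 for all genes and 0.51 in the dimmest bin.

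The 5 members with a probe that were not tested differed in kind. Hoxb1, Hoxc12 and Hoxd1 were above background on no array. Hoxb13, the most posterior Hoxb gene and known from the prostate and distal gut, was above background on 3 arrays, GenV replicates 3 and 4 and SalD replicate 1, at -5.48, -6.46 and -6.20. Hoxc5, a central gene, was dropped from the gene table because SalD replicate 3 was missing. Its level was -5.97, -5.76, -6.22 and -6.44 in GenD and -6.11, -6.32, -5.53 and -5.85 in GenV. It was -3.67, -5.00 and -1.67 on the other 3 SalD arrays and -5.59, -6.40, -6.12 and -5.61 in SalV. The 3 SalD values lay above all other arrays, SalD replicate 4 most of all. Fitted over all probes with that array dropped, the SalD minus SalV difference was 2.48 (adjusted p = 0.00745), and the GenD minus SalD difference was -2.65 (adjusted p = 0.00817).

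Other probes of a gene disagreed in some cases. A dimmer Hoxa4 probe, above background on 8 arrays and on 0 of the SalD arrays, was lower in SalD than in SalV (adjusted p = 0.00212 over all probes) and higher in GenD than in SalD (adjusted p = 0.00388). The brighter one gave 0.00049 and 0.89, without a call. A dimmer Hoxd3 probe, above background on 11 arrays and likewise on 0 of the SalD arrays, was called in the same directions (adjusted p = 0.00402 and 0.00453), where the brighter one gave -0.22 and -0.42. A second Hoxb3 probe gave -0.60 between GenD and SalD (adjusted p = 0.0453), against 0.57 from the brighter one (adjusted p = 0.147). Hoxa10, Hoxa11, Hoxb2, Hoxb4, Hoxa6, Hoxa7, Hoxc13 and Hoxd12 each had 1 kept probe, so no second probe could be compared. The calls of Hoxa4, Hoxb3 and Hoxd3 thus depended on the probe.

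Hox proteins bind DNA with partners of the TALE homeobox class, the PBX and MEIS families. None of the 9 TALE genes was called in the genistein arm, which called 5.29% of all genes. In the control arm, which called 23% (8.45% higher and 14.6% lower), 3 fell and none rose (median -0.33). These were Meis3 (-0.81, adjusted p = 0.00871), Pbx4 (-0.65, adjusted p = 0.00812) and Pbx2 (-0.47, adjusted p = 0.0290). Meis3 and Pbx4 were higher in GenD than in SalD, by 0.62 and 0.47.

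Among genes beside the clusters and the related ParaHox genes, 11 were measured and none was called in the genistein arm, against 5.29% of all genes. In the control arm Evx2, the homeobox gene next to Hoxd13, fell by 1.20 (adjusted p = 0.0112). Pdx1, a ParaHox gene of the pancreas, fell by 2.11 (adjusted p = 0.0420), and Lnpk, a gene beyond the Hoxd cluster, rose by 0.55 (adjusted p = 0.0321). Pdx1 was above background on only 2 SalD and 3 SalV arrays. Evx2 was higher in GenD than in SalD by 1.83 (adjusted p = 0.00328). The remaining 8 neighbours were not called in the control arm, where 23% of all genes were.

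Polycomb and trithorax proteins keep Hox genes off or on through development. None of 25 such genes was called in the genistein arm, against 5.29% of all genes. In the control arm 5 rose and 2 fell, against 8.45% and 14.6% of all genes, with Cbx8 (1.06), Ash2l (0.74) and Eed (0.70) among the rises. Between GenD and SalD 3 were higher and 6 lower, with Cbx7 at -1.38 and Cbx8 at -1.18, in the comparison that called 22.9% of all genes (16.5% higher and 6.39% lower).

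Retinoic acid is an activator of anterior Hox genes in the embryo. Of 15 genes of its pathway, 1 rose and 2 fell in the genistein arm, and 2 rose and 5 fell in the control arm. Over all genes 2.49% rose and 2.8% fell in the genistein arm, and 8.45% rose and 14.6% fell in the control arm. Aldh1a2, which makes retinoic acid, rose by 0.77 (adjusted p = 0.0310) in the genistein arm and by 0.68 (adjusted p = 0.0224) in the control arm. The receptor gene Rxrg fell by 1.19 and 1.53, and Rdh10, which oxidizes retinol, by 0.72 and 0.60 in those arms.

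Genes that pattern the Müllerian duct, the forerunner of the uterus, gave no call among 17 in the genistein arm. The shares of all genes called were 5.29% in that arm and 23% in the control arm (8.45% higher and 14.6% lower). In the control arm 5 fell, among them Wnt4 (-1.86, adjusted p = 0.000140), Wnt5a (-1.27, adjusted p = 0.000776) and Tbx2 (-1.03, adjusted p = 0.00455), and 1 rose. Wnt4, a ligand needed for duct formation and decidualization, was higher in GenD than in SalD by 1.32 (adjusted p = 0.00357). The difference between the arms was called for none of the 17, and the Wnt4 mean was also lower in GenD than in GenV. Wnt4 levels by group follow. The Wnt4 level averaged 0.21 ± 0.24 in GenD, 0.80 ± 0.32 in GenV, -1.11 ± 0.37 in SalD and 0.75 ± 0.27 in SalV (SD, n = 4 each).

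Of 14 genes listed as linked to Hoxa10 or Hoxa11 in the uterus, or as glucocorticoid targets, 3 rose and 1 fell in each arm. In each arm 2 of the 3 rises were the glucocorticoid targets Fkbp5 and Tsc22d3. Ptger3, a prostaglandin E receptor gene, fell by 0.96 (adjusted p = 0.00908) in the genistein arm and 0.68 (adjusted p = 0.0224) in the control arm. Hand2, a stromal factor, rose by 1.01 (adjusted p = 0.0285) in the genistein arm and had a difference of 0.52 (adjusted p = 0.138) in the control arm. Igfbp1, a decidual gene, was above background on 4 SalD and 0 SalV arrays and at least 1.43-fold higher in SalD (adjusted p = 0.0145). Fkbp5 and Tsc22d3 rose by 4.56 and 2.40 in the genistein arm and by 4.44 and 2.42 in the control arm. These lists were chosen with earlier results known, and their counts can be read against 5.29% of all genes called in the genistein arm and 23% in the control arm. The difference between the arms was called for no gene of these lists.

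**Figure D5:**
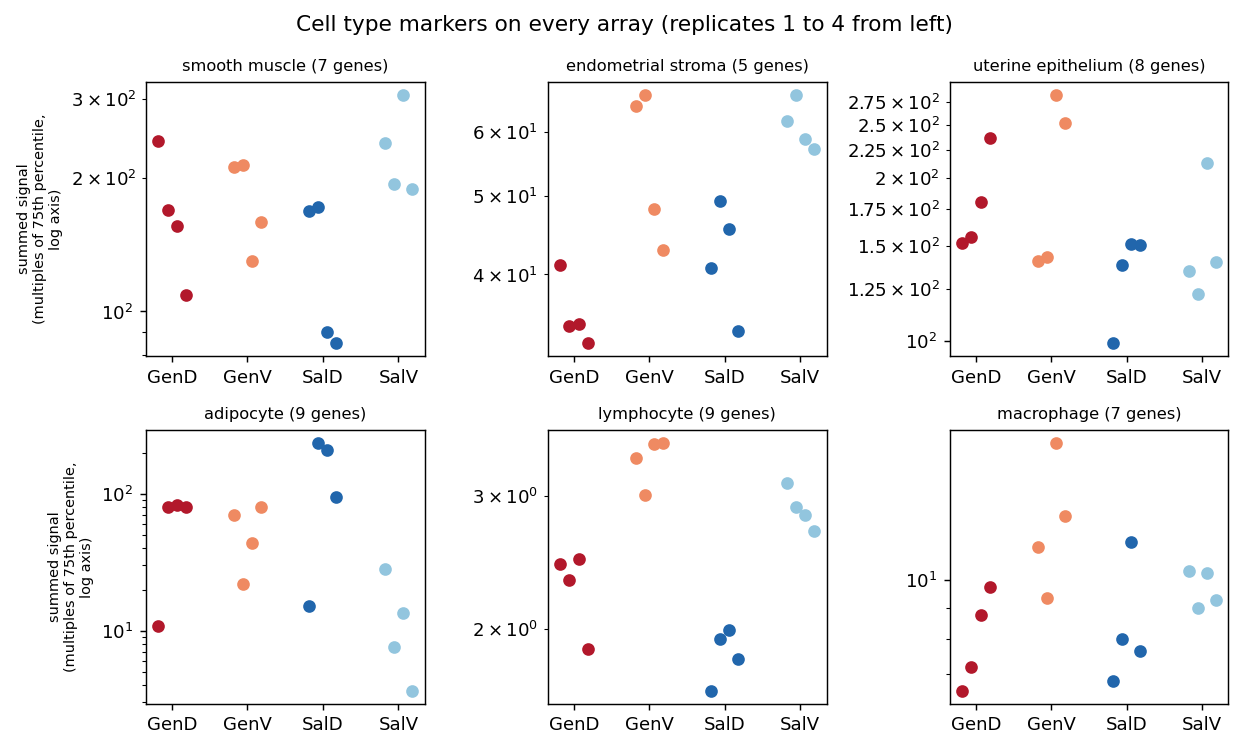
Summed signal of 6 cell type marker lists on every array, in multiples of the 75th percentile of the array on log axes, for GenD, GenV, SalD and SalV (replicates 1 to 4 from left). Lymphocyte sums are lower in GenD than in GenV and in SalD than in SalV, adipocyte sums reach 237 in SalD against at most 28.2 in SalV, and epithelial sums are highest on GenV replicates 3 and 4.

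Marker lists were read beside these results, as shown in the plot of marker sums. Between SalD and SalV, 6 of 9 adipocyte genes rose and none fell, with Lep at 4.63 and Cidec at 4.33. Lep was above background on 4 SalD arrays and 1 SalV array, so the size of its rise is uncertain. In the same comparison 5 of 9 lymphocyte genes, 4 of 8 endothelial genes and 2 of 7 smooth muscle genes fell. Of all genes 8.45% were called higher and 14.6% lower there. Between GenD and GenV, where only 5.29% of all genes were called, no adipocyte or smooth muscle gene was called and 2 lymphocyte genes fell. Summed stromal signal was 34.0 to 49.2 in SalD, below the 57.1 to 66.6 of SalV. Among those 5 stromal genes only Lum was called, with a fall of 0.93 (adjusted p = 0.00407), and the list median was 0.27. The part of cell make-up in the Hox results was not tested.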

How the data were processed

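Whole uterus RNA (400 ng per sample, column-purified with DNase, per the labels' protocols) was labelled with Cy3. Per the file headers, the deposited values are spot intensity on a linear scale from Agilent Feature Extraction 12.0.0.7, after its background subtraction and detrending and before any scaling between arrays. Version 9.5 is given in the submitters' processing notes. The deposited value table held the same intensity (largest difference 0). Spot flags used for filtering are, per the file headers, 0 or 1.

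Signals were taken as log2 minus the 75th percentile of each array. Outlier spots were set to missing, spots of a probe were averaged, 807 probes with a missing value were dropped, and 32598 probes were kept that at least 4 of 16 arrays measured well above background. Of 29245 probes with a RefSeq accession, 28223 were named through the GRCm38.p6 annotation. Each gene took its brightest probe.

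A model of 4 group means was fitted to 24651 genes and targets with limma 3.58.1 (R 4.3.3) and tested on simulated data. Two-sided p-values were adjusted by Benjamini-Hochberg within each of 5 comparisons, with 0.05 as the threshold of a call. A fold is a bound where no array of a group was above background, taken against the higher of the dim probe's signal and the lowest signal well above background on each array. No fold is given for Hoxc13, which was above background on few arrays of either group compared. Each array gives 1 value per gene, and the 4 arrays per group limit the precision.

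Every member called in a comparison is named with all its arrays, and from other lists the 3 called genes with the largest change. Uncalled members with values, and the repeats of a list gene in a second comparison, were chosen after their values were seen. The values of 1 member are not reported here. The members and lists were chosen with earlier results of these data known. Figures used matplotlib 3.10.9 in Python 3.11.15. Alternatives were quantile and median scaling, normexp correction with offset 50 (on median spot signals, since the mean is not in the files used), the probe filter, the mean of probes, slide or replicate as a block, and leaving out arrays. Slides were identified from a code in the names of the scanner output, 5 in all, and the groups were spread unevenly over them. Slide 1 held no GenD array, slide 2 held no SalD or SalV array, and slide 5 held SalV replicate 3 alone.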

Additional observations from a re-analysis of the deposited data

Results flagged for a closer look

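Of 103 groups of 4 arrays examined for a single outlying array, 2 had one, and chance alone marks about 1 in 20. Hoxb9 was -1.45 on SalD replicate 4, where the other SalD arrays had -2.21, -2.19 and -2.14. Hoxd9 was -0.091 on GenD replicate 2, where the other GenD arrays had -0.43, -0.41 and -0.39. Hoxb9 was called in no comparison, and Hoxd9 was called between SalD and SalV, a comparison without the GenD arrays.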

How the results depend on the processing

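Over 27 alternatives, 16 of which leave out 1 array each, no result of the 10 called Hox genes changed sign while called. The named genes of the other lists were not followed under these alternatives. In the control arm (5 Hox genes called), 2 were called with quantile normalization, 3 with the slide as a block and 9 without GenV replicates 3 and 4. Leaving out 1 array gave 1 to 6. The shares of all genes called in the first 3 of these settings were 19.4%, 18.7% and 26.9%. With 1 array left out they ran from 12.6% (without SalV replicate 1) to 23.9%, with 14.5% without SalD replicate 4. Only Hoxb4 remained without SalV replicate 1 or without SalD replicate 4, 2 were called without SalV replicate 2, and 3 without SalV replicate 3 or SalD replicate 1. In the genistein arm (2 called), leaving out 1 array gave 2 to 3, against 2.92 to 4.99% of all genes. Between GenD and SalD (5 called), 3 were called with no filter, 2 without SalD replicates 2 and 3 and 8 without GenV replicates 3 and 4. The shares of all genes in those settings were 16.1%, 9.71% and 27.1%, and 13.4 to 24.2% with 1 array left out. Leaving out 1 array there gave 2 to 6, with 2 without SalD replicate 3 or GenD replicate 2, 3 or 4, and 3 without SalD replicate 1 or GenD replicate 1. Between GenV and SalV, and for the difference between arms, 0 were called under each of these alternatives and leaving out 1 array gave 0 to 0. The causes were not tested. With probes lacking an array kept, an alternative chosen after seeing the data, Hoxc5 was added in the control arm and between GenD and SalD. That gave 6 called in each, against 23% and 22.8% of all genes. Replicate numbers were not treated as pairs in the main test. Correlations of same-number deviations ran from -0.37 to 0.38 over 24 pairs (median 0.031), with 8 over 0.1. Those of different numbers ran from -0.42 to 0.39 over 72 pairs (median -0.038), with 16 over 0.1. These values do not settle whether the numbers pair the samples. With the replicate number as a block, 7, 2, 0, 0 and 4 Hox genes were called in the control arm, the genistein arm, the difference between arms, under vehicle and under dexamethasone. The shares of all genes, in that order, were 24.7%, 5.5%, 0%, 0% and 23.5%. The best correlation was with the array's own number for 6 of 16 arrays. Signal over background limits Hoxa13, Hoxc8, Hoxc13 and Hoxd13, which were measured on 4 to 6 arrays.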
